A study of Mus musculus with 4 samples.

Results

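The genes described here are imprinted genes, of which 42 were listed by symbol and 41 were found among the 17778 genes of the deposited table. Phlda2 was not in that table and was not analysed here. Poly(A) RNA came from the medial prefrontal cortex (mPFC) of male C57BL/6 mice (C57BL/6J in the methods of the study), which entered the experiment as juveniles at postnatal day 21. The CUMS group (2 libraries) had lived under chronic unpredictable mild stress for 3 weeks and had shown depression-like behaviors, and the control group (2 libraries) had lived without stress. The tissue was taken 24 hours after the behavior tests. Only those stressed mice that met the behavioral criteria were used, so that the CUMS group stands for vulnerable animals. No transgene was involved, and the sources used here do not say whether a library was made from 1 mouse.

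Imprinted genes are expressed mainly or only from the copy inherited from 1 parent, because methylation of DNA at a control region was set differently in egg and sperm. They lie in groups on the chromosomes, and a control region can act on several neighbors. Many are known for roles in fetal growth, in the placenta and in brain circuits of feeding and parental care, and several are expressed strongly in the hypothalamus. Paternal expression is established for 22 of the listed genes and maternal expression for 16, at least in some tissues. For the other 4, Gnas, Grb10, Blcap and Inpp5f, the expressed copy differs by transcript or tissue. The sequencing here did not tell parental copies apart, and the values are sums over both.

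The values are RPKM, read numbers scaled to gene length and library size, which the authors had averaged over the libraries of a group. There is therefore 1 mean per gene and group, no value for a single library and no replicate check, and the variation among mice is unknown for every difference below. The low values rise in steps of 1 fragment, which gave an estimated depth of 7385524 fragments for each library of the control group and 7440476 for each of the CUMS group. This estimate is lower than the read numbers the study gives for its libraries. The reason was not tested, and the fragment numbers and intervals below rest on the estimate. Ratios are the CUMS mean over the control mean on the log2 scale. Each is followed in brackets by an exact 95% interval, which covers counting error in these libraries only.

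Imprinted genes were mostly lower in CUMS. Of the 41 genes, 34 had a lower mean in CUMS and 7 had a higher one. This is 82.9% lower, against 53.4% of all genes with unequal means. The exact binomial 95% interval of 67.9 to 92.8% treats the genes as independent, which neighbors in 1 region are not. The list was also chosen with earlier results of these data known, so the interval describes these genes and is not a test. Magel2, Dlk1 and Peg10 are among the mRNAs that the study lists as downregulated. A level of 0.5 RPKM in either group was reached by 39 of the 41, and a fold change above 1.5, the fold threshold of the study, was counted among these. It was passed by 9 imprinted genes that were lower in CUMS, where 4.42% of all genes passed in that direction, and by 0 that were higher, where the background was 2.78%. The median log2 ratio of the 39 genes was -0.18, and that of the 14257 genes at this level was -0.015. The counting interval lay below 0 in 19 of the 39 genes against 16.8% of all genes, and above 0 in 4 against 12.5%. Both conditions together, a fold above 1.5 and an interval below 0, were met by 7 genes against 3.07%. In bulk tissue, fewer cells of a type and less RNA per cell cannot be told apart.

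Some of these genes lay near the minimum level. Asb4, Calcr, Airn, Mkrn3 and Slc22a18 reached 0.5 RPKM in control alone (0.60 to 0.68 RPKM), so that they had to be lower in CUMS, and 4 of them are among the 9. With at least 0.5 RPKM in both groups, the fold was passed by 5 of 34 imprinted genes, namely Magel2, Dlk1, Peg10, Zdbf2 and Peg3, against 3.01% of genes. With no minimum, and values under 3 fragments raised to that floor, it was passed by 10 of 41 genes against 6.11%. Among genes with a mean over both groups of at least 5 RPKM, it was passed by 3 of 26 imprinted genes and by 0.958% of all genes. Just inside the threshold was Peg3 with a fold of 1.60, and just outside were Slc22a18 with 1.47 and Usp29 with 1.45. The plot of group means by gene shows the levels behind these counts.

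**Figure D1:**
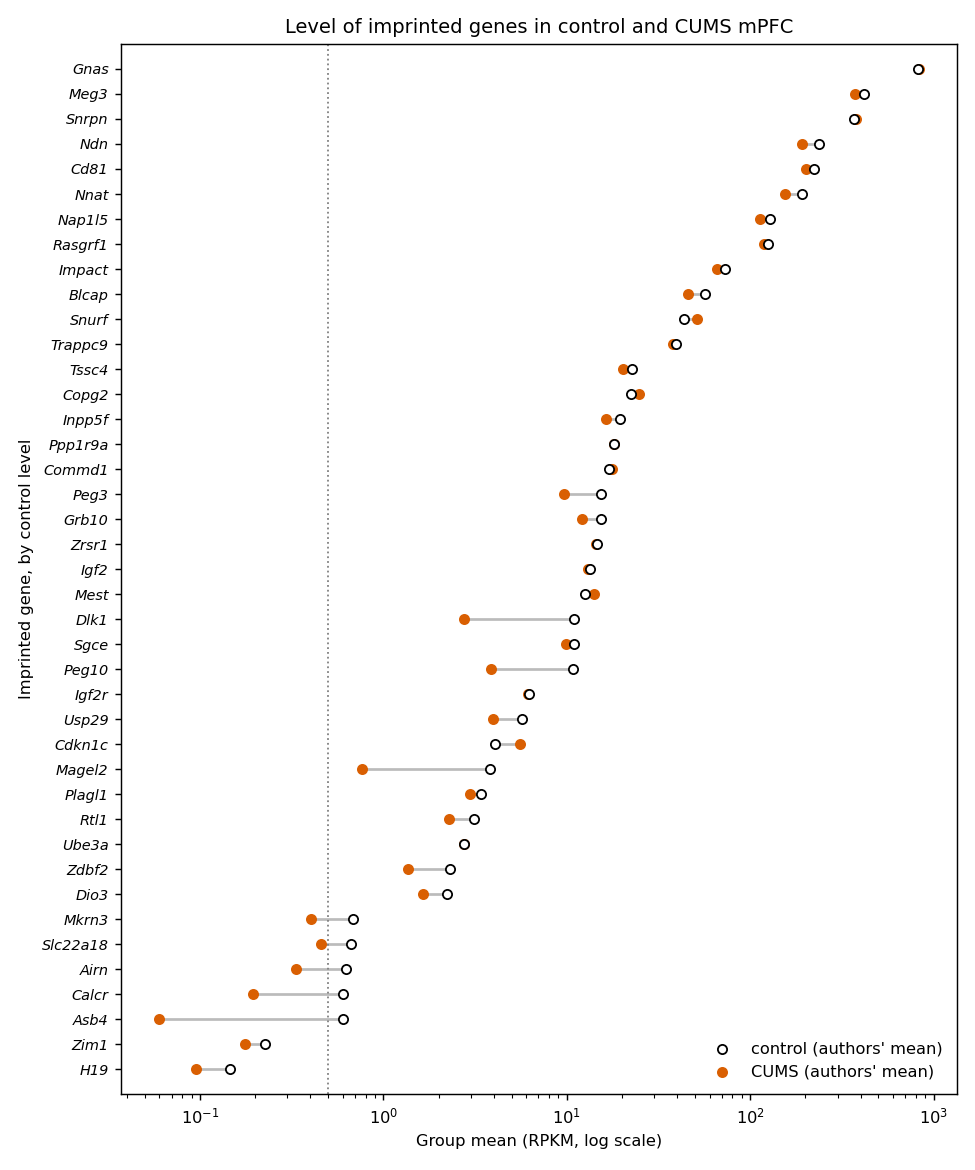
Group means of the 41 imprinted genes in RPKM on a log axis, with open circles for control and filled circles for CUMS, ordered by control level, and a dotted line at 0.5 RPKM. The widest gaps are those of Asb4 (0.60 to 0.06 RPKM) and Magel2 (3.79 to 0.76 RPKM), and the highest gene, Gnas, was at 819 and 836 RPKM.

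The first region is that of the Prader-Willi and Angelman syndromes on chromosome 7, with 6 of the genes. Magel2 (gene 27385, chromosome 7, 62376979 to 62381640), which encodes a MAGE protein that regulates a ubiquitin ligase on endosomes, was 3.79 RPKM in control against 0.76 RPKM in CUMS. The estimated fragments were 261 and 53, and the log2 ratio was -2.32 (-2.77 to -1.88). Its neighbor Ndn (gene 17984, chromosome 7, 62348277 to 62349928), which encodes the related growth suppressor necdin, lies 27050 bases away. Ndn was 236 RPKM in control against 191 RPKM in CUMS, a log2 ratio of -0.31 (-0.36 to -0.25). Both genes were thus lower in CUMS, and their counting intervals do not overlap. Mkrn3, a ubiquitin ligase gene known as a brake on puberty, had 0.68 and 0.41 RPKM, from 26 and 15 fragments. Its log2 ratio of -0.75 had an interval that included 0 (-1.83 to 0.17).

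The promoter windows of Magel2 and Ndn are shown because these neighbors of 1 protein family had ratios far apart. Windows run from 250 bases before to 50 bases after the start of transcription, on RefSeq's GRCm38.p6 build, and both are on the plus strand. They lie at chr7:62376729-62377028 for Magel2 and chr7:62348027-62348326 for Ndn, and capitals mark CpG, the dinucleotide that carries DNA methylation. There were 10 CpG in the window of Magel2 and 11 in that of Ndn.
Magel2: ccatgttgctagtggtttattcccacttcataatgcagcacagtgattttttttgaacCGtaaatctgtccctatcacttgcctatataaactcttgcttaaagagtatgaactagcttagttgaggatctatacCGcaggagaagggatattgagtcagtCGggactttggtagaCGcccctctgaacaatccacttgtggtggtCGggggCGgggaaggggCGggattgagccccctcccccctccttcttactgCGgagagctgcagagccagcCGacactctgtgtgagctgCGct
Ndn: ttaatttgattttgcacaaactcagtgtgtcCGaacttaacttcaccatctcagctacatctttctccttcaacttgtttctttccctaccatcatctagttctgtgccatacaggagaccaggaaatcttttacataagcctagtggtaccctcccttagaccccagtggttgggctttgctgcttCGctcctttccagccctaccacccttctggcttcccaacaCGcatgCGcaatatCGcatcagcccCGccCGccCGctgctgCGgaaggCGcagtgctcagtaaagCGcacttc

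The remaining genes of that region had small ratios. Snrpn, which encodes a spliceosome protein of neurons, was 367 RPKM in control against 376 RPKM in CUMS, a log2 ratio of 0.03 (-0.0038 to 0.07). Snurf, an upstream reading frame carried by the same transcript, was listed separately with 43.6 and 51.1 RPKM, a log2 ratio of 0.23 (0.12 to 0.34). All exonic bases of Snurf overlap those of other genes in GENCODE M21, so the division of reads between Snrpn and Snurf is uncertain. Ube3a, the ubiquitin ligase gene of Angelman syndrome, had 2.75 and 2.74 RPKM, a log2 ratio of -0.0053 (-0.30 to 0.29). Of its exonic bases, 27.3% overlap transcripts of the other strand, and the use of strand in counting was not stated. The 6 genes of the region thus spanned log2 ratios from -2.32 to 0.23.

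The second region, on chromosome 12, runs from Dlk1 to Dio3. Dlk1 (gene 13386, chromosome 12, 109452485 to 109463336) encodes a membrane protein related to Notch ligands. It was 10.9 RPKM in control (703 fragments) and 2.77 RPKM in CUMS (179 fragments), a log2 ratio of -1.98 (-2.23 to -1.75). Rtl1, a gene derived from a retrotransposon and needed in the placenta, had 3.10 and 2.28 RPKM, a log2 ratio of -0.44 (-0.73 to -0.16). Dio3, which encodes the deiodinase that inactivates thyroid hormone, had 2.21 and 1.65 RPKM, and its log2 ratio of -0.42 had an interval that included 0 (-1.003 to 0.16). Dlk1, Rtl1 and Dio3 are the protein-coding genes of the paternal copy.

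The long non-coding RNA Meg3, made from the maternal copy, was among the most abundant genes of the set. It was 417 RPKM in control against 373 RPKM in CUMS, a log2 ratio of -0.16 (-0.18 to -0.14). The non-coding RNAs Rian and Mirg, which follow Meg3 on the maternal copy and were not members of the list, had log2 ratios of -0.06 (-0.11 to -0.02) and -0.05 (-0.28 to 0.19). In this region the 4 listed genes were all lower in CUMS, and the interval of Dlk1 lay apart from those of the other 3. Meg3 and Rtl1 overlap over 6830 bases of their gene spans on opposite strands. The window of Dlk1 (chr12:109452573-109452872, plus strand) is given for comparison with the one of Meg3 further down, with its 9 CpG in capitals. This window lies inside the gene span given above for Dlk1.
Dlk1: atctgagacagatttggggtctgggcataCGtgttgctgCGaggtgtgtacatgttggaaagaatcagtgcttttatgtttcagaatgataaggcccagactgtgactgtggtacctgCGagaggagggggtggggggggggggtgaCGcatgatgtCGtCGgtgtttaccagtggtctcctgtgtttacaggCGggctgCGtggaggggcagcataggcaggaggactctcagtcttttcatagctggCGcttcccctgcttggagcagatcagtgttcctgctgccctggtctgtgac

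The third region, on chromosome 6, contains Peg10 and Sgce, both of the paternal copy, and Calcr, Ppp1r9a and Asb4. Peg10 (gene 170676, chromosome 6, 4747306 to 4760517), a retrotransposon-derived gene needed for the placenta, was 10.8 RPKM in control (1068 fragments) and 3.89 RPKM in CUMS (386 fragments). Its log2 ratio was -1.48 (-1.65 to -1.31). Sgce (chromosome 6, 4674350 to 4747204) encodes epsilon-sarcoglycan, whose loss causes myoclonus dystonia, and its span ends 101 bases from that of Peg10. Sgce was 10.9 RPKM in control against 9.85 RPKM in CUMS, a log2 ratio of -0.15 (-0.40 to 0.10). These neighbors had nearly the same control level, and their intervals did not overlap.

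At the ends of the third region, expression was low. Asb4, a SOCS box gene of hypothalamic neurons, had 0.60 and 0.06 RPKM, from 29 and 3 fragments, and the lowest ratio of the set, -3.32 (-5.64 to -1.59). Calcr, the calcitonin receptor gene, had 0.61 RPKM in control against 0.20 RPKM in CUMS, from 31 and 10 fragments, with a log2 ratio of -1.63 (-2.84 to -0.58). Ppp1r9a, which encodes the synaptic scaffold neurabin and lies between Peg10 and Asb4, had 18.0 RPKM in both groups. Its log2 ratio was -0.0020 (-0.08 to 0.08). The region thus held the lowest ratio of all imprinted genes together with a gene of nearly equal means.

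**Figure D2:**
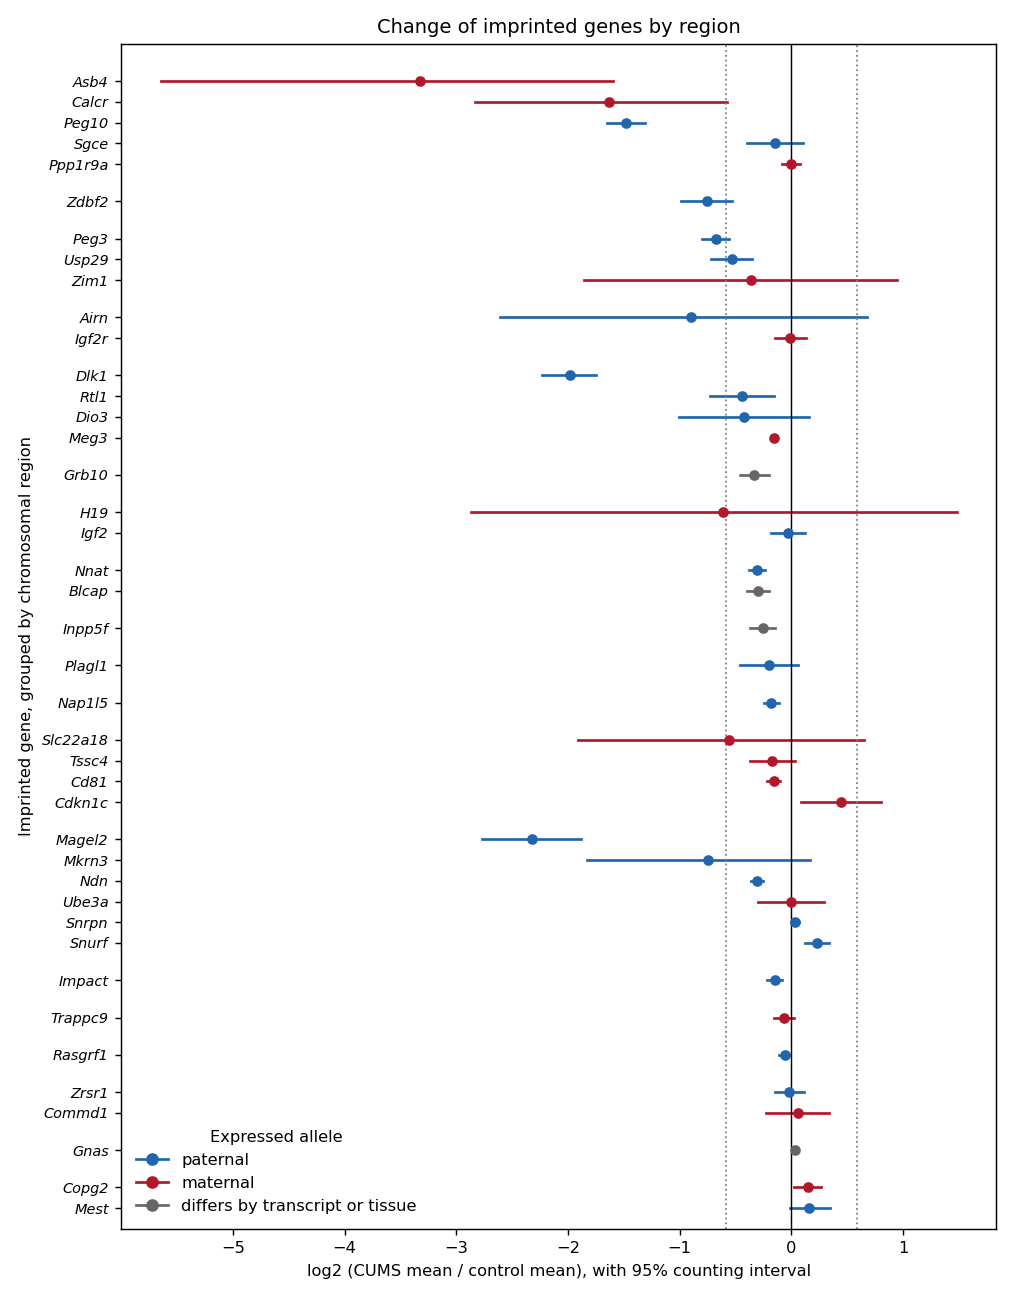
Log2 ratio of CUMS over control for the 41 imprinted genes, grouped by chromosomal region and colored by expressed copy, with lines for the 95% counting interval and dotted lines at a fold of 1.5. Asb4, Calcr, Peg10, Dlk1 and Magel2 lie left of the other genes of their regions, and 0 genes lie beyond the right dotted line.

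Peg3 and Usp29, on chromosome 7, are read in opposite directions from starts that are 164 bases apart. Peg3 (gene 18616, chromosome 7, 6703892 to 6730462), a zinc finger gene known for its part in maternal care, was 15.4 RPKM in control (1508 fragments) and 9.64 RPKM in CUMS (950 fragments). Its log2 ratio was -0.68 (-0.80 to -0.56). Usp29, a deubiquitinase gene, was 5.71 and 3.94 RPKM, a log2 ratio of -0.54 (-0.72 to -0.35). Here the genes with neighboring starts had similar ratios and overlapping intervals, unlike Peg10 and Sgce. Zim1, a zinc finger gene of the maternal copy, was under 0.5 RPKM in both groups (0.23 and 0.18 RPKM). Zdbf2, on chromosome 1 (63200358 to 63314576), which programs growth and feeding through the hypothalamus and pituitary, was 2.30 and 1.37 RPKM. Its log2 ratio was -0.75 (-0.98 to -0.53).

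Promoter windows were found for 34 of the 41 genes, with 52 windows, and 32851 windows were available for all genes. The median number of CpG was 15.5 in the windows of imprinted genes and 7 in all windows. All windows cover 27025 genes, more than the 17778 of the deposited table, and were not matched for expression level. Some imprinted genes count several times, such as Gnas, Igf2 and Snrpn with 4 windows each, and Snrpn and Snurf share a window. The 8-letter sequence TGACGTCA, which reads the same on both strands and is known as the cyclic AMP response element, was in 4 of 52 windows (7.69%) and in 1.79% of all windows. The genes were Peg3, Usp29, Meg3 and Zdbf2, and the windows of Peg3 and Usp29 share 263 bases, so that they hold 1 match between them. The GC box GGGCGG, searched on both strands, was in 51.9% of the windows of imprinted genes and in 35.7% of all windows. TATAAA was in 21.2% against 13.6%, and AAGATGG, a core letter sequence of YY1 motifs, in 1.92% against 6.34%, both searched on both strands. A match of letters is a description of the window and not a site of binding.

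The 3 distinct windows with TGACGTCA are shown with these letters in capitals. They lie at chr7:6730370-6730669 on the minus strand for Peg3, chr12:109540746-109541045 on the plus strand for Meg3 and chr1:63273019-63273318 on the plus strand for Zdbf2. The log2 ratios of these genes were -0.68, -0.16 and -0.75. The window shown for Zdbf2 lies inside the gene span given above. Meg3 and Zdbf2 each have another window, without these letters.
Peg3: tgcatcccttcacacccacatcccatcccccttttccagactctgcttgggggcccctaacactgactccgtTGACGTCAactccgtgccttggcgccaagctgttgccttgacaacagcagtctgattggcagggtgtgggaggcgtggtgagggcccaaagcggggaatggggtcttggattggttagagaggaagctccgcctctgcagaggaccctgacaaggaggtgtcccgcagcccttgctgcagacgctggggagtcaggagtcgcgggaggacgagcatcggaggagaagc
Meg3: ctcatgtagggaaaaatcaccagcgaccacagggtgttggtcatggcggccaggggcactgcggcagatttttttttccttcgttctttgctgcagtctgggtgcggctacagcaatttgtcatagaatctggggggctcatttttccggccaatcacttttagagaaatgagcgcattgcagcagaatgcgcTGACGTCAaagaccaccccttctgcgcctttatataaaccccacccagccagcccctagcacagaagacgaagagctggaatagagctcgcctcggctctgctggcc
Zdbf2: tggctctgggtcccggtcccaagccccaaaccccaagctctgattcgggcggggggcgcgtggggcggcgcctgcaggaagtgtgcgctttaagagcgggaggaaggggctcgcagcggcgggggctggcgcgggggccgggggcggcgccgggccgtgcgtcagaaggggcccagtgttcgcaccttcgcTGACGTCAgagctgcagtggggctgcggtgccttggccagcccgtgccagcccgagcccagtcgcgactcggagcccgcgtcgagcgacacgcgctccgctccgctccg

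Imprinted genes of growth control ranged from nearly equal means to lower ones. Igf2, a fetal growth factor made in the adult brain mainly by meninges and choroid plexus, was 13.3 RPKM in control against 13.02 RPKM in CUMS, a log2 ratio of -0.03 (-0.18 to 0.12). Its receptor gene Igf2r, whose product carries the factor to lysosomes, was 6.22 and 6.18 RPKM (log2 ratio -0.0093). The antisense RNA Airn, which silences the paternal copy of Igf2r outside neurons, had 0.63 and 0.34 RPKM from 11 and 6 fragments, and its interval of -2.60 to 0.68 included 0. H19, a non-coding RNA of the same region as Igf2, was under 0.5 RPKM in both groups (6 and 4 fragments). Grb10, an adaptor that restrains insulin receptor signaling, was 15.3 and 12.2 RPKM, a log2 ratio of -0.33 (-0.46 to -0.20). The zinc finger gene Plagl1 had 3.40 and 2.96 RPKM, and its interval of -0.46 to 0.06 included 0.

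Cdkn1c, which encodes the cell cycle inhibitor p57, had the highest ratio of the set. It was 4.07 RPKM in control (116 fragments) and 5.53 RPKM in CUMS (159 fragments), a log2 ratio of 0.44 (0.09 to 0.80). A transcript of the other strand, Gm44732, overlaps 30.7% of its exonic bases. Nearby on chromosome 7, the tetraspanin gene Cd81 was 224 and 200 RPKM, a log2 ratio of -0.16 (-0.22 to -0.10). Tssc4 had 22.7 and 20.2 RPKM, with an interval that included 0 (-0.37 to 0.03), and so did the transporter gene Slc22a18 with 0.67 and 0.46 RPKM (-1.91 to 0.65). Cdkn1c was the only 1 of these 4 neighbors with a higher mean in CUMS.

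Several abundant imprinted genes of neurons were lower by small amounts. Nnat, which encodes a small proteolipid of the endoplasmic reticulum, was 191 and 154 RPKM, a log2 ratio of -0.31 (-0.38 to -0.23). Nnat lies in an intron of Blcap, which was 56.4 and 45.8 RPKM with nearly the same ratio, -0.30 (-0.40 to -0.20). Nap1l5, a nucleosome assembly gene, was 128 and 113 RPKM (log2 ratio -0.18), and Impact, an inhibitor of the stress kinase Gcn2, was 73.0 and 65.9 RPKM (log2 ratio -0.15). Inpp5f, a phosphoinositide phosphatase gene, was 19.6 and 16.4 RPKM, a log2 ratio of -0.26 (-0.37 to -0.14). Each of these 5 intervals lay below 0, and none of the genes passed the fold of 1.5.

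The remaining genes differed little. Gnas, the gene of the stimulatory G protein alpha subunit, was 819 and 836 RPKM, a log2 ratio of 0.03 (0.0028 to 0.06). Rasgrf1, an exchange factor for Ras that acts at synapses, was 124 and 119 RPKM, a log2 ratio of -0.06 (-0.11 to -0.01). Mest was 12.6 and 14.2 RPKM, and Copg2, whose 3′ end overlaps it, was 22.4 and 24.8 RPKM, with log2 ratios of 0.16 and 0.15. The trafficking gene Trappc9 (39.6 and 37.9 RPKM), the copper regulator gene Commd1 (17.0 and 17.7 RPKM) and Zrsr1 in an intron of it (14.5 and 14.4 RPKM) had intervals that included 0. The directions of Ube3a, Ppp1r9a and Igf2r turned when 0.015 was added to every log2 ratio, which brings the median of all genes to 0.

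Ordered by the difference in RPKM instead of the ratio, other genes came first. The difference of the means (CUMS minus control) was -45.2 RPKM for Ndn, -43.5 RPKM for Meg3, -36.5 RPKM for Nnat and -23.2 RPKM for Cd81. It was -3.03 RPKM for Magel2, -0.54 RPKM for Asb4 and 17.5 RPKM for Gnas. Summed over the 41 genes, the level was 2960 RPKM in control against 2771 RPKM in CUMS, a change of -6.36%, while the sum over all genes changed by 0.43%. The large ratios thus belonged to genes of low or moderate level.

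**Figure D3:**
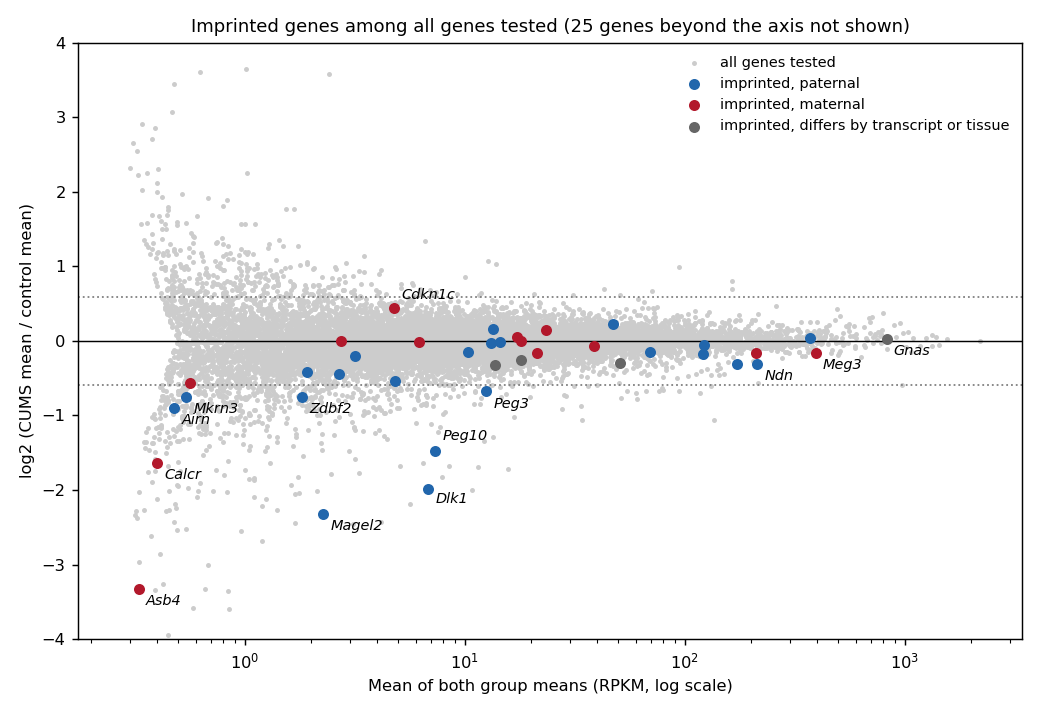
Log2 ratio of CUMS over control against the mean of both groups in RPKM on a log axis, with all genes tested in grey, imprinted genes in color by expressed copy and dotted lines at a fold of 1.5. Dlk1, Peg10 and Magel2 lie below most grey points of their level, and the abundant Ndn, Meg3 and Gnas lie within 0.31 of 0.

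Genes of the paternal and the maternal copy were then set side by side. Of all genes with unequal means, 53.4% were lower in CUMS, and the median log2 ratio of genes at 0.5 RPKM or more was -0.015. Of 22 paternally expressed genes, 19 were lower in CUMS, the median log2 ratio was -0.31 and 7 passed the fold of 1.5 (Magel2, Dlk1, Peg10, Airn, Zdbf2, Mkrn3 and Peg3), where 4.42% of all genes did. Of 15 maternally expressed genes in the table, 12 were lower, and among the 13 with at least 0.5 RPKM the median was -0.06 and 2 passed the fold (Asb4 and Calcr). Asb4, Calcr, Airn and Mkrn3 reached the minimum level in control alone, and with 0.5 RPKM in both groups the fold was passed by 5 of 20 paternally and 0 of 10 maternally expressed genes, against 3.01% of all genes. Of the 4 genes whose expressed copy differs by transcript or tissue, 3 were lower, with a median of -0.28. The difference between these classes was not tested, and genes of 1 region share a control region.

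Exons shared with other genes were counted by direction, with a threshold of 10% chosen after the values were seen. All 7 imprinted genes with a higher mean in CUMS (Gnas, Snrpn, Commd1, Copg2, Mest, Snurf and Cdkn1c) had exons of which over 10% overlap another gene of GENCODE M21 on either strand. Among the 34 lower genes this held for 4, which were Igf2, Tssc4, Ube3a and Usp29. Zrsr1 (9.17%), H19 (9.15%), Rtl1 (8.40%) and Meg3 (8.29%), all lower, lay just under the threshold, and 13 of the 34 lower genes had some overlap. Over all genes matched, the share above 10% was 14.5% of higher and 13.8% of lower genes. The part of shared reads in these values was not tested.

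A second list held 38 other genes reported as imprinted in at least some tissue or mouse cross, of which 33 were in the table. With at least 0.5 RPKM were 25 of them, 18 lower (72%) and 6 higher in CUMS, with a median log2 ratio of -0.06, where 53.2% of all genes at this level were lower. The fold of 1.5 was passed by 2 lower genes (8%), Zim3 (-0.85) and Dlx5 (-0.65), against 4.42% of all genes. It was passed by 2 higher ones, Kcnq1 (0.81) and Pon3 (0.83), against 2.78%, and the intervals of both included 0. Both reached 0.5 RPKM in CUMS alone (0.64 and 0.56 RPKM), so that they had to be higher. Peg13, an abundant non-coding RNA within Trappc9, was 90.4 and 85.3 RPKM (log2 ratio -0.08). The exons of Zim3 and Usp29 overlap.

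Marker genes of neighboring brain regions were set beside the imprinted genes, on lists chosen with earlier results of these data known. Among septum and hypothalamus markers, 21 of 22 were in the table and 14 of them were lower in CUMS, against 53.4% of all genes. Of the 13 at 0.5 RPKM or more, 10 passed the fold downward and 2 upward, against 4.42% and 2.78% of all genes. Gal, Irs4, Oxt and Gpr101 reached 0.5 RPKM in control alone, so that they had to be lower. Pmch reached it in CUMS alone and had to be higher. With at least 0.5 RPKM in both groups, Lhx8, Nkx2-1, Baiap3, Ecel1, Zic1 and Trh passed the fold downward, against 3.01% of genes. Kiss1 passed it upward at this level, and Esr1 did not pass. The summed level of the 21 markers was 80.7 RPKM in control against 29.2 RPKM in CUMS. The highest of them in control were Baiap3 (24.1 and 7.34 RPKM), Ecel1 (17.6 and 5.44 RPKM) and Zic1 (17.5 and 6.92 RPKM). These genes make up most of that sum and are among the mRNAs that the study lists as downregulated. Nkx2-1 had 2.56 and 0.67 RPKM. Esr1 had 0.95 and 0.975 RPKM, a log2 ratio of 0.04 (-0.50 to 0.57). Among the peptide genes of hypothalamic nuclei, there were 1 and 1 fragments of Avp, 8 and 1 of Oxt, 2 and 4 of Hcrt, 5 and 8 of Pmch, 0 and 5 of Agrp, and 4 and 12 of Kiss1. Higher numbers were found for Gal (23 and 1 fragments) and Trh (124 and 52 fragments). Otp, which marks developing and adult hypothalamic neurons, had 4 and 0 fragments. Striatum markers were lower in 9 of 9 genes (summed level 556 and 458 RPKM), against 53.4% of all genes. The fold was passed by 0 of them, against 4.42% of all genes downward and 2.78% upward.

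Markers of the labelled tissue were detected at high levels. Excitatory neuron markers of the neocortex were higher in CUMS in 10 of 10 genes. Over all genes, 8165 were higher and 9371 lower. The summed level of the neocortical markers was 2283 RPKM in control against 2813 RPKM in CUMS. Of the sources of Igf2, choroid plexus markers were lower in 4 of 6 genes (summed level 4.96 and 3.06 RPKM). Most of this sum in control, and its fall, came from Clic6 (3.225 and 1.245 RPKM). Kl had 0.93 and 0.88 RPKM, and Sostdc1 had 0.5 and 0.215 RPKM with an interval that included 0. Ttr had 1 and 0 fragments, Folr1 had 5 and 6, and Kcnj13 had 0 and 8. Meningeal fibroblast markers were higher in 6 of 8 genes (25.1 and 30.4 RPKM). The part of these tissues and cell types in the values of the imprinted genes was not tested.

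**Figure D4:**
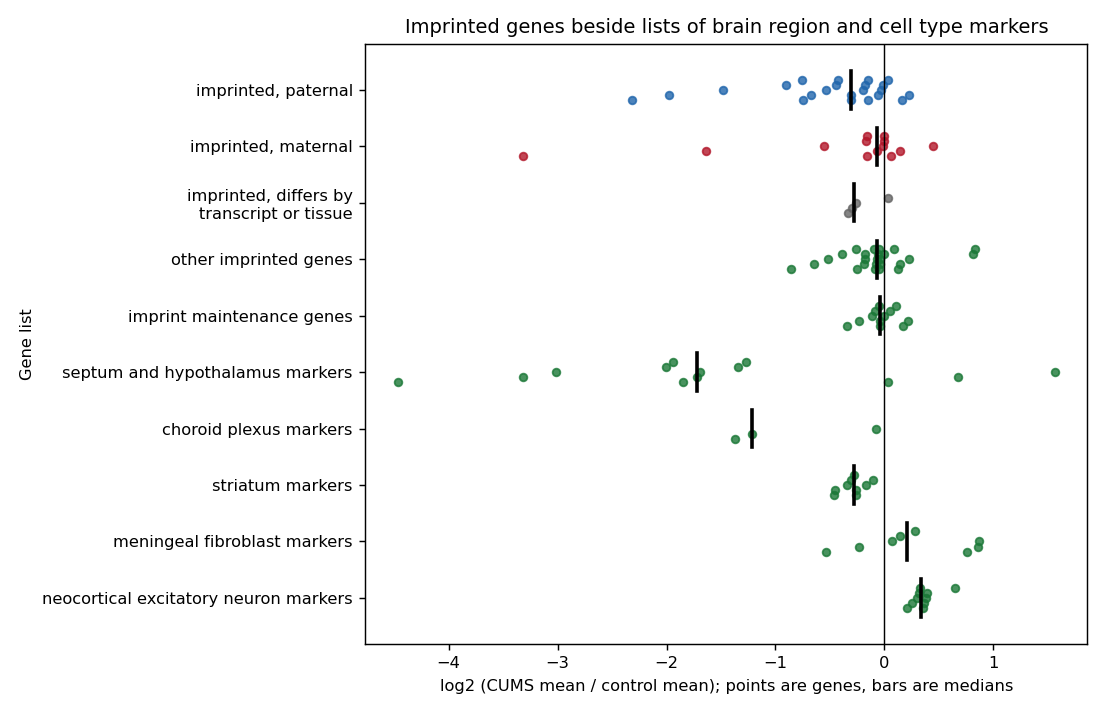
Log2 ratio of CUMS over control for genes that reached 0.5 RPKM in a group, by list, with points for genes and bars for list medians. Septum and hypothalamus markers have the lowest median (-1.72), paternally expressed imprinted genes have a median of -0.31, maternally expressed ones -0.06 and neocortical markers 0.34.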

How the data were processed

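Poly(A) RNA of 4 mPFC libraries (2 control, 2 CUMS) was sequenced as paired reads, trimmed with SolexaQA and aligned to mm10. The submitters' processing notes name TopHat 1.0.12 and Bowtie 0.11.3. Uniquely aligned reads were counted per gene, and the annotation and use of strand are not given in the sources used here. The deposited values were RPKM, which the authors averaged over the libraries of each group. Values listed at 0.01 were counted as 0 fragments. In the ratios over all genes they stayed at 0.01, except in the setting with no minimum, where they were raised to the floor. None of the imprinted genes had a value of 0.01. The authors' columns of log2 ratio, direction and NOISeq probability were not used.

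Group means were compared with Python 3.11.15 and SciPy 1.17.1, and the computation was tested on simulated data. The step of 1 fragment was fitted on genes shorter than 1000 bases, and 86.5% of control and 86.2% of CUMS values were whole multiples of it within 0.15. The fragments of all genes summed to 102% of the estimated depth, and whether 1 step is a read or a read pair is not given, which the intervals depend on. Intervals are Clopper-Pearson, and the floor was 3 fragments. PCR duplicates could not be removed.

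No test between groups was possible with 1 mean per group, and no p-values are given. Every listed gene is named. The members and lists, and most alternatives, were chosen with earlier results of these data known. Coordinates and promoter windows are from RefSeq (GRCm38.p6, the build named mm10), and exon overlaps are from GENCODE M21. Alternatives changed the minimum level, the pseudocount, the scaling, the fold and the genes included.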

Additional observations from a re-analysis of the deposited data

How the results depend on the processing

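No paired analysis was possible because 1 mean per group was all that could be used here. For the same reason leaving out a library was not run. The number of imprinted genes past a fold of 1.5, which was 9 of 39 and all lower in CUMS, was 3 of 28 with at least 5 RPKM in either group and 5 with a fold above 2. The share of all genes was not counted for these settings. The number was 5 of 34 without the 7 genes under 100 fragments in total, and also 5 of 34 with at least 0.5 RPKM in both groups. These 2 settings were chosen after seeing the data and kept the same 34 genes, so they are not separate checks. At 0.5 RPKM in both groups, 3.01% of all genes passed the fold downward. The number of imprinted genes ranged from 7 to 10 under the other 7 alternatives. The median log2 ratio lay between -0.31 and -0.15 under all 9 alternatives run for it. The share of lower genes, 82.1% of the 39, was 74.4% to 84.8% under all alternatives but 1. That setting left out the 11 genes whose exons overlap another gene by over 10%, and was also chosen after seeing the data. These 11 include all 7 higher genes, so that its share of 100% of 28 was fixed by the choice. The median of -0.31 also came from that setting. With 0.5 RPKM added to both means, the log2 ratios of Asb4 and Magel2 were -0.97 and -1.77. Depth limits the genes of few fragments, such as Airn, Mkrn3, Slc22a18, H19 and Zim1, whose intervals included 0.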

Other observations

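Partners and regulators of the imprinted genes were also measured. Of 12 genes listed for imprint maintenance, 8 were lower and 4 higher in CUMS, where 53.4% of all genes were lower. Their median log2 ratio was -0.04. The fold of 1.5 was passed by 0 in either direction, against 4.42% of all genes downward and 2.78% upward. Arid4a had a log2 ratio of -0.35 (-0.57 to -0.12), and the intervals of the others included 0. Zfp57, a zinc finger gene that protects imprints, was 3.98 and 4.47 RPKM, and its corepressor gene Trim28 was 53.3 and 53.2 RPKM. Among 12 genes of the MAGE family and its partners, which include Magel2 and Ndn themselves, 7 were lower and 5 higher. Of all genes, 53.4% were lower. Of the ligase and retromer partners of Magel2, Trim27 (7.94 and 7.86 RPKM), Usp7 (26.3 and 26.6 RPKM) and Vps35 (44.3 and 47.7 RPKM) had log2 ratios of -0.01, 0.01 and 0.11, beside -2.32 for Magel2 itself. The retromer genes Vps29 and Vps26a had log2 ratios of 0.04 (-0.09 to 0.17) and 0.34 (0.18 to 0.50). Of the other MAGE genes measured, Maged1 had a log2 ratio of -0.15 (-0.19 to -0.12) and Magee2 one of -0.52 (-0.88 to -0.17). Maged2 (0.09), Magee1 (-0.02) and Mageh1 (-0.05) had intervals that included 0.

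The list of the insulin-like growth factor axis shares Igf2, Igf2r and Grb10 with the imprinted genes. Of its 15 genes, 12 were lower in CUMS, against 53.4% of all genes. The median log2 ratio of the 15 was -0.15. The fold was passed by 0 in either direction, against 4.42% of all genes downward and 2.78% upward. The receptor substrates Irs1 and Irs2 had log2 ratios of -0.45 (-0.68 to -0.22) and -0.44 (-0.58 to -0.29), and the binding protein genes Igfbp4 and Igfbp6 had 0.23 and 0.24, with intervals above 0. Of the other binding protein genes, Igfbp2 had -0.25 (-0.42 to -0.08), and Igfbp3 (-0.19), Igfbp5 (0.03) and Igfbp7 (-0.04) had intervals that included 0.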
